A study of Drosophila melanogaster with 5 samples.

Results

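The genes described here act in the trafficking of proteins to pigment granules, the organelles that hold the eye pigments of the fly. They comprise 4 genes for subunits of the AP-3 adaptor (g, rb, cm and or), 3 genes for subunits of the HOPS tethering complex (dor, car and lt), and the granule genes ltd and p. They were chosen by name, not by their signals, as every probe set whose array annotation names 1 of these genes alone. Earlier results of these data were known when the genes were chosen. This gave 10 probe sets for the 9 genes, out of 13966 probe sets besides controls, of which 12443 named a single gene and covered 10844 genes. The gene g had 2 probe sets, and ltd was listed under its other name, Rab32.

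Expression was measured on an Affymetrix array in total RNA from heads of Drosophila melanogaster pupae, dissected 80 h after pupa formation, with 15 to 20 heads in each RNA extraction and 1 array per extraction. Canton S, used as wild type, gave 2 arrays. The other 3 came from otd-uvi, a mutant strain whose allele of otd (orthodenticle, now named oc) is labelled eye-specific. The sources used here do not say how the allele acts on oc. The gene encodes a homeodomain transcription factor, the fly relative of vertebrate CRX and OTX, and the comparison of the strains asked which genes of the late pupal head depend on it. Each strain stands for 1 genotype and 1 genetic background, so the allele and the background cannot be told apart. A pool of whole heads also holds brain, fat body, muscle and cuticle, and in such samples fewer cells of a type and less RNA per cell cannot be told apart.

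Pigment granules are lysosome-related organelles, made mainly in the pigment cells that surround each ommatidium and, as smaller granules, in the photoreceptors. AP-3 sorts cargo from endosomes into vesicles bound for these granules and for lysosomes, and HOPS tethers late endosomes, lysosomes and related organelles before they fuse. Mutations in these genes lower the amount of pigment that is stored, and most of the classical names (garnet, ruby, carmine, orange, deep orange, carnation, light, lightoid and pink) describe the eye colour of the mutants. The same machinery works in most cells, so its transcripts in a head are not those of pigment cells alone.

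No member passed the test. In limma, with Benjamini-Hochberg adjustment over 13966 probe sets and a threshold of 0.05, 0 of 10 member probe sets were called, against 0.773% of all probe sets (108 of 13966). An unadjusted p under 0.05 was reached by 1 member probe set, that of p, against 15.0% of all. The 3 otd-uvi arrays did not overlap the 2 Canton S arrays for 3 of the 10 member probe sets, against 34.0% of all. The shares among members were no larger than these backgrounds. The median log2 difference, otd-uvi minus Canton S, was -0.03 over the member probe sets and 0.05 over all probe sets. The members whose groups did not overlap were p and rb, lower in otd-uvi, and cm, higher in otd-uvi.

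**Figure D1:**
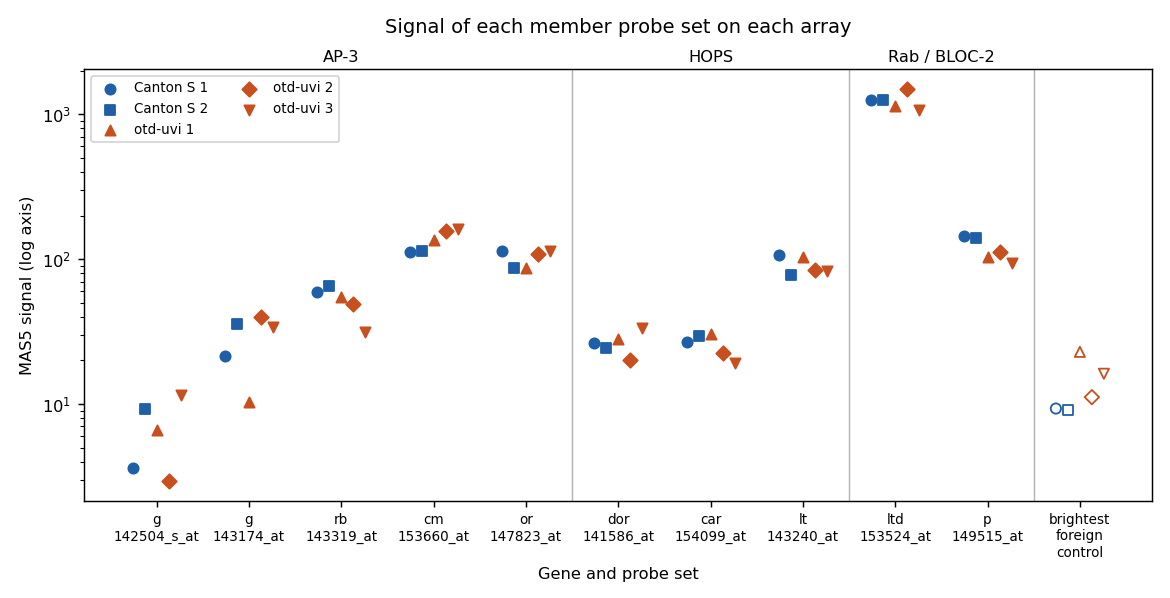
Signal of the 10 member probe sets on each of the 5 arrays, on a log axis, with Canton S in blue and otd-uvi in orange and 1 marker shape per array. Open markers at the right show the brightest of 8 mouse and yeast control probe sets on each array. The groups are apart for rb, cm and p and overlap for the other 7 probe sets.

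Signals are those the authors deposited, on a linear scale. Differences and their errors are from log2(signal + 8), which understates the change of dim probe sets. A signal of 1 probe set cannot be set against that of another, because probes differ in how strongly they bind. The medians of the arrays were close, at 41.3 and 39.96 in Canton S and 41.8 to 43.1 in otd-uvi. The median of the 8 mouse and yeast controls, for which fly RNA holds no target, was 3.07 and 3.69 for Canton S and ranged from 7.03 to 7.92 on the others (two-sided p = 0.1 by an exact permutation test, which cannot go lower with 5 arrays). By decile of signal, the median log2 difference of all probe sets was 0.09 to 0.28 in deciles 1 to 5 and -0.13 to -0.02 in deciles 6 to 10. The targeted gene oc (143425_at) gave 71.7 and 56.4 for Canton S against 27.6, 46.8 and 59.8 for the mutant, which overlapped, with a log2 difference of -0.49 (95% interval -1.28 to 0.29, adjusted p = 0.527 in limma).

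The AP-3 complex has 2 large subunits, delta and beta, with a medium mu and a small sigma subunit, and each was measured through its own gene. The subunit genes did not share a direction: rb was lower, cm higher, and or and g had differences near 0. The mu subunit, which binds sorting signals of cargo, is encoded by cm (153660_at). Canton S gave signals of 112 and 114, and otd-uvi gave 137, 157 and 161. All 3 otd-uvi arrays lay above both Canton S arrays, as did 18.6% of all probe sets. The log2 difference was 0.39 (SE 0.17, 95% interval -0.01 to 0.79), or 1.31-fold, and it did not pass (adjusted p = 0.341 in limma). Relative to the median of probe sets in the same signal decile, cm stood at 0.47.

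The beta subunit, one of the large subunits of the complex, is encoded by rb (143319_at). The Canton S arrays had signals of 59.7 and 65.5, and the otd-uvi arrays had 54.6, 49.0 and 31.5. Every otd-uvi array was below both Canton S arrays, as for 15.4% of all probe sets, and replicate 3 was the lowest by far. The log2 difference was -0.44 (SE 0.29, 95% interval -1.11 to 0.24, adjusted p = 0.516 in limma), and without otd-uvi replicate 3 it was -0.24. The 3-prime over 5-prime signal of 3 fly control transcripts, which increases when RNA is degraded, had a mean log2 value of 1.41 and 1.37 for Canton S against 1.32, 1.68 and 1.88 for the mutant. These values overlapped between the strains (two-sided p = 0.4 by an exact permutation test). In a fit with this value as a covariate the log2 difference was -0.18 for rb, 0.29 for cm and -0.64 for the brighter probe set of g, none of which passed. The part of RNA quality in these values was not tested further.

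The sigma subunit, the smallest of the complex, is encoded by or (147823_at). Signals of 114 and 86.4 came from Canton S and of 87.0, 109 and 113 from otd-uvi, so that all 3 otd-uvi arrays lay between the Canton S arrays. The log2 difference was 0.04 (SE 0.22, 95% interval -0.47 to 0.55), and quantile normalization and cyclic loess kept its sign while median centring turned it to -0.02.

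The delta subunit, the other large subunit, is encoded by g, and both of its probe sets were dim. The brighter one (143174_at) gave 21.6 and 35.6 for Canton S, and 10.3, 39.6 and 34.2 for otd-uvi. The groups overlapped, and the value on otd-uvi replicate 1 was under the brightest control of that array, at 22.9. The log2 difference was -0.11, with the widest interval of all members (SE 0.47, 95% interval -1.22 to 0.99), and without otd-uvi replicate 1 it was 0.32. The other probe set (142504_s_at) gave 3.59 and 9.27 for Canton S, and 6.56, 2.94 and 11.6 for otd-uvi. Only 1 of its 5 values, that of Canton S replicate 2, exceeded the brightest control of its array, so it gives no measured level of g. The suffix of its name marks, in the array maker's scheme, a probe set that can match more than a single transcript. The mean of both probe sets had a log2 difference of -0.03.

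The subunit genes were also set against each other within each array. For the 6 pairs of AP-3 genes, with the brighter probe set of g, the log2(signal + 8) of the second gene was subtracted from that of the first, and the Canton S mean of this difference from the result. These pairs were added after the values were seen. For rb over cm the value was -0.42, -0.75 and -1.31 on the otd-uvi arrays, with the Canton S arrays at -0.05 and 0.05. It was lower on all 3 otd-uvi arrays, by a mean of -0.83 (two-sided p = 0.2 by an exact permutation test, 0.6 after Benjamini-Hochberg adjustment over 6 pairs). For cm over or it was 0.43, 0.32 and 0.30 in otd-uvi against -0.20 and 0.20 in Canton S, a mean change of 0.35 (two-sided p = 0.1 by the same exact test, 0.6 after adjustment). The other 4 pairs overlapped between the strains. No pair passed, and with 5 arrays none could have passed.

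**Figure D2:**
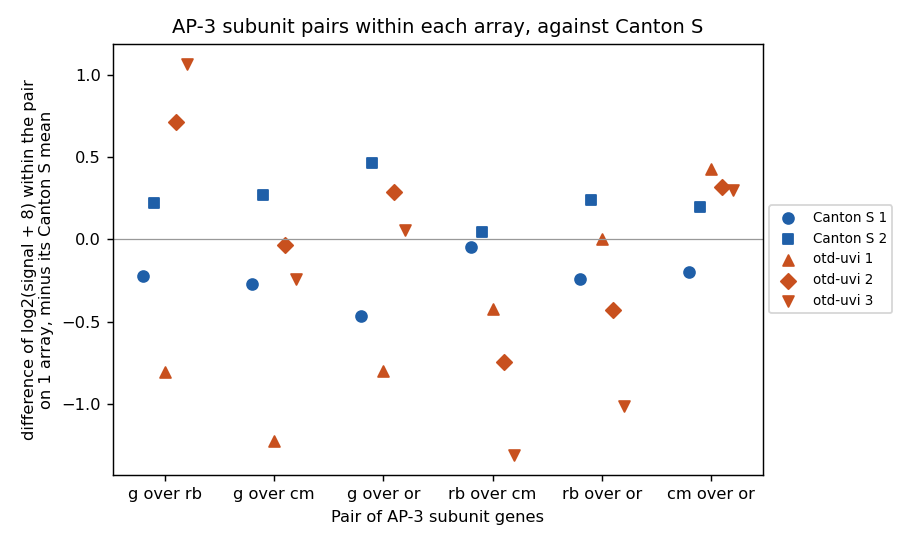
Difference in log2(signal + 8) between the genes of each pair of AP-3 subunits on each array, after subtracting the mean of the 2 Canton S arrays, with Canton S in blue and otd-uvi in orange. The value of rb over cm is lower and that of cm over or higher on all 3 otd-uvi arrays, and the other 4 pairs overlap.

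HOPS was represented by 3 of its subunits. For each the groups overlapped, and the log2 differences were -0.19, -0.02 and 0.06. The gene dor (141586_at) encodes Vps18, a core subunit. Canton S gave 26.5 and 24.4 for it, and otd-uvi gave 28.0, 20.3 and 33.4. The otd-uvi arrays lay on both sides of Canton S, and the log2 difference was 0.06 (SE 0.30, 95% interval -0.64 to 0.76). Quantile normalization turned it to -0.08 and cyclic loess to -0.10.

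The gene car (154099_at) encodes Vps33A, a Sec1/Munc18-type protein that guides the pairing of SNAREs. Signals of 26.8 and 29.6 were measured for Canton S, and of 30.5, 22.4 and 19.3 for otd-uvi. The highest and the lowest values were both from otd-uvi, and the log2 difference was -0.19 (SE 0.29, 95% interval -0.88 to 0.50, adjusted p = 0.792 in limma). In the fit with the 3-prime over 5-prime value as a covariate the difference was 0.02.

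The gene lt (143240_at) encodes Vps41, the subunit that in mammalian and yeast cells also takes part in an AP-3 route. Canton S had signals of 106 and 77.2, and otd-uvi had 103, 83.8 and 82.8. All 3 otd-uvi arrays lay between the Canton S arrays, and the log2 difference was -0.02 (SE 0.22, 95% interval -0.55 to 0.51). Its sign was not settled: quantile normalization gave 0.05 and cyclic loess 0.06.

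The remaining members act beside AP-3 and HOPS. The gene p (149515_at) encodes the fly relative of human HPS5, a subunit of the BLOC-2 complex of Hermansky-Pudlak syndrome. The signals were 144 and 141 for Canton S, and 103, 112 and 93.8 for otd-uvi. All otd-uvi arrays lay below both Canton S arrays, by more than the spread within either strain. The log2 difference was -0.44 (SE 0.18, 95% interval -0.86 to -0.03), or 0.735-fold, in size next to that of rb, with an unadjusted p = 0.0395 and an adjusted p = 0.302 in limma. It did not pass over all probe sets. Probe sets of the same signal decile had a median of -0.08, and against it p stood at -0.36. Without any 1 array the difference stayed between -0.50 and -0.38, with the 3-prime over 5-prime covariate it was -0.41, and under quantile normalization and cyclic loess it was -0.34 in both. Its unadjusted p in limma was under 0.05 in 6 of 14 other fits, and was 0.0866 and 0.0865 under quantile normalization and cyclic loess, where cm had 0.0202 and 0.0163 instead.

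By the root mean square difference of log2 values over the 5 arrays, each centred on its own mean, the genes with the pattern most like that of p were ND-39 (153309_at, 0.030), Cul2 (154761_at, 0.041) and CG17068 (141427_at, 0.042). ND-39 encodes a subunit of respiratory complex I and Cul2 a cullin of ubiquitin ligases. For ND-39 the Canton S arrays gave 710.5 and 694, and the otd-uvi arrays 519, 543 and 491, the same split as p. With 5 arrays and 13966 probe sets such likeness is a description only.

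The gene ltd (153524_at) encodes the small GTPase Rab32, which works on the granules with its exchange factor, the product of claret (ca). Signals of 1251 and 1252 in Canton S stood beside 1137, 1497 and 1076 in the mutant. The Canton S arrays were nearly equal, and the otd-uvi arrays lay on both sides of them. The log2 difference was -0.03 (SE 0.16), with the narrowest interval of all members, from -0.42 to 0.35, which corresponds to 0.75-fold at its lower end and 1.27-fold at its upper end. Quantile normalization gave 0.08 and cyclic loess 0.06.

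**Figure D3:**
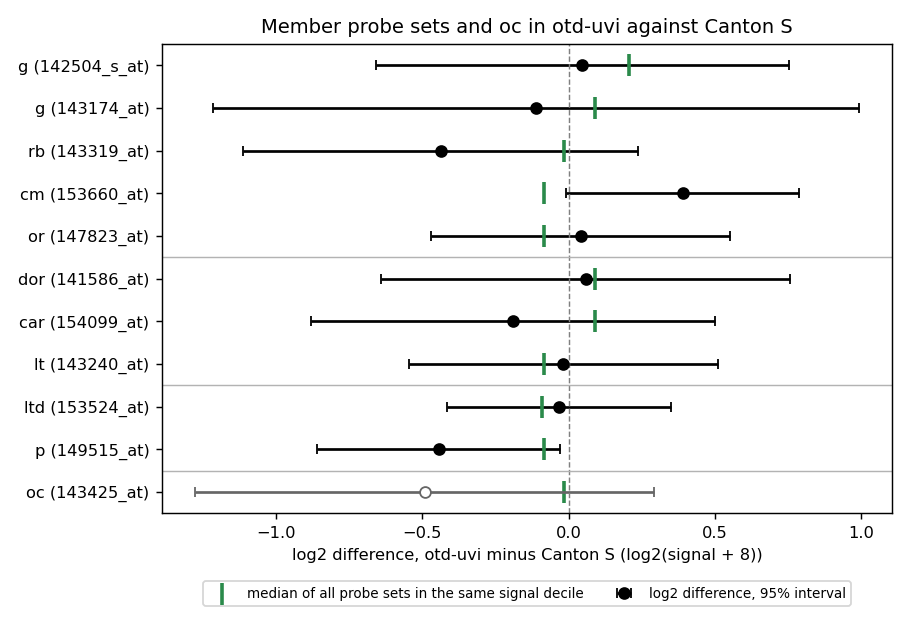
Log2 difference of each member probe set and of oc, otd-uvi minus Canton S, with 95% intervals from limma (points and bars). Green ticks give the median difference of all probe sets in the same decile of signal. The interval of p ends at -0.03, and those of all other member probe sets include 0.

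The size of the differences that passed varied with signal. Among probe sets that passed, the smallest difference in size was 0.80 in the brightest decile of signal, where ltd lay, and 1.16 in the eighth, where cm, or, lt and p lay. The intervals of all 5 of these genes lay within those sizes. Such a size is not a limit above which a difference is called, because a call also depends on the SE. In the brightest decile the fat body marker apolpp, by its brightest probe set, did not pass at -1.01 (adjusted p = 0.0566 in limma). For g, dor and car, in the fifth decile, the smallest called difference was 1.74, and for rb, in the sixth, 1.84. The interval of the brighter probe set of g ran from a fall of 57.0% to a rise of 99.3%. Its SE of 0.47 was above the largest SE of any probe set that passed, 0.36, so 1.74 does not give the size that could be called for it. Differences of the size that p and cm showed were below the smallest called difference in every decile named here. No probe set passed in decile 2, which held the dimmer probe set of g.

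The other parts of the pathway were read from lists of 49 genes, of which 37 were measured by a probe set of their own. The lists were written with earlier results of these data known. None of the 37 passed in limma, against 0.773% of all probe sets. An unadjusted p under 0.05 was found for 4 of the 37, against 15.0% of all. The median log2 difference over the 37 was -0.09, 25 being below 0 and 12 above, against 44.8% of all probe sets below 0. Most of the 37 lay in signal deciles 6 to 10, where the medians of all probe sets were -0.13 to -0.02. The 44.8% also covers the dimmer deciles, so it is not the share for probe sets of like signal. Groups did not overlap for 14 of the 37, with 8 lower and 6 higher in otd-uvi, against the 34.0% of all probe sets.

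Nearest to the members stand the rest of HOPS and its early endosomal relative CORVET, listed with Vps33B and Vps16B, which are subunits of neither. Of the 5 measured genes of this list 4 were below 0, with a median of -0.11. Vps33B was among the 4, at -0.0003, and Vps16B was the gene above 0, at 0.28. Vps16A (149547_at), which binds car in the complex, had signals of 77.5 and 57.3 for Canton S against 39.5, 45.9 and 54.3 for the mutant, and a log2 difference of -0.46 (adjusted p = 0.457 in limma). All its otd-uvi values were below those of Canton S. Vps8, a CORVET subunit, had a log2 difference of -0.29 (adjusted p = 0.657 in limma) and overlapped. Of BLOC-1, a complex that works with AP-3 in cargo sorting, 4 of 8 genes were measured. Dysb (149015_at), the fly dysbindin, had signals of 13.1 and 7.22 for Canton S against 21.8, 22.9 and 16.2 for the mutant, and a log2 difference of 0.65 (adjusted p = 0.346 in limma). Its otd-uvi values lay above those of Canton S, but only 1 Canton S and 2 otd-uvi values exceeded the brightest control of their array. Blos2 went the other way, at -0.44 (adjusted p = 0.418 in limma).

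The 6 measured genes of AP-1 and AP-2, the adaptors of the trans-Golgi and the plasma membrane, were all below 0, with a median of -0.28. Under quantile normalization and cyclic loess AP-2mu was above 0 and the median was -0.19 and -0.18. The largest differences were in AP-1gamma (144729_at), from 299.7 and 240.3 in Canton S to 135, 189 and 180 in otd-uvi, and in AP-2alpha (143820_at), from 343 and 387 to 255, 249 and 216. Both were lower on every otd-uvi array, at log2 differences of -0.67 and -0.59, and neither passed (adjusted p of 0.212 and 0.152 in limma). The 4 AP-3 genes had a median of -0.03 with 2 genes on each side of 0. These lists differ in signal. The AP-1 and AP-2 genes lay in deciles 8 to 10, where the medians of all probe sets were -0.13 to -0.08. The AP-3 genes lay in deciles 5, 6 and 8, with medians of 0.09, -0.02 and -0.08. The difference between the lists was not tested.

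Of 4 further genes listed for eye colour 3 were measured, and of these rg (rugose) is known for a rough eye rather than for colour. The exchange factor gene ca had a log2 difference of -0.23 by its brightest probe set (141610_at, adjusted p = 0.664 in limma), and rg, which encodes an anchor of protein kinase A, one of -0.33 (adjusted p = 0.435 in limma). Both overlapped between the strains. Of 8 measured genes of endosome and lysosome fusion, lqf (153065_at), an epsin of endocytosis, was lower on every otd-uvi array, with 685 and 714 for Canton S against 418, 528 and 407 for the mutant. Its log2 difference was -0.63 (adjusted p = 0.138 in limma). Mon1, part of the exchange factor for Rab7, was at -0.37 (adjusted p = 0.581 in limma) and overlapped.

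Genes of the lysosome and its proton pump had a median of 0.09 over 11 measured genes, with 7 above 0. Lamp1 (146589_at), a lysosomal membrane protein, had signals of 2125 and 2115 for Canton S against 1638, 1636 and 1345 for the mutant, and a log2 difference of -0.47 (adjusted p = 0.190 in limma). All otd-uvi values were below Canton S. Of the 7 measured proton pump subunits, named after their values were seen, Vha55, Vha44, Vha26 and VhaAC39-1 were above Canton S on every otd-uvi array, as were 18.6% of all probe sets, at 0.31, 0.27, 0.13 and 0.09. Of the others, by their brightest probe sets, Vha100-1 was at 0.11, VhaSFD at -0.09 and Vha16-1 at -0.11, and all 3 overlapped. The dimmer probe sets of VhaSFD (144191_at) and Vha16-1 (142120_at) were above 0, at 0.10 and 0.19, and also overlapped. By its brightest probe set VhaSFD turned to 0.01 and 0.02 under quantile normalization and cyclic loess. The other 6 subunits kept their sign under all 3 other scalings. None of the 7 passed in limma. Mitf, a transcription factor of lysosomal genes, had a log2 difference of -0.47 by a probe set with only 1 of 5 values above the brightest control of its array.

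Markers of the cells in a head did not move alike. Of 6 measured photoreceptor genes 4 fell (chp, Arr2, inaD and trp, at -1.61, -1.42, -1.26 and -1.07, adjusted p of 0.00968 to 0.0190 in limma). The others, Arr1 and eys (by its brightest probe set), overlapped, at -0.03 and -0.37. Of the dimmer probe sets of eys, 145634_at was lower on every otd-uvi array, at -1.39 (adjusted p = 0.268 in limma). The other, 145635_at, overlapped, at -0.51. The summed signal of the list was 11447 and 12410 in Canton S and 5348 to 6470 in otd-uvi. Of 5 genes listed for pigment and accessory cells none passed, with a median of 0.07 as deposited and of -0.13 under quantile normalization. Their summed signals, 2371 and 2660 in Canton S and 2398 to 2793 in otd-uvi, overlapped, and Pdh made up most of each sum. The gene rst exceeded the brightest control of its array on 1 Canton S and 0 otd-uvi arrays. Whether santa-maria, at 0.40, is particular to these cells was not checked. Pdh, an enzyme of retinal pigment cells, was at -0.04 with 1885 and 2201 for Canton S and 1927, 2160 and 1852 for the mutant. By their brightest probe sets all 4 measured neuronal markers lay below 0, with a median of -0.91. Their summed signals were 751 and 875 in Canton S and 293 to 493 in otd-uvi. For brp that probe set (146887_at) overlapped, at -0.78. Its dimmer probe sets also overlapped, at -0.89 (146885_at) and 0.10 (146886_at). None of the 4 neuronal markers passed. The medians of glial and muscle markers, with 3 and 2 measured genes, were 0.00 and -0.19 as deposited, and none passed. Among the glial markers Gs2 was lower on every otd-uvi array, as were 15.4% of all probe sets, at -0.53 (adjusted p = 0.219 in limma). The others, repo and moody, overlapped, at 0.09 and 0.00. The glial median was -0.05 under median centring. For fat body (4 genes) the median was -0.86 with no gene past the threshold (1 under median centring), and for hemocytes (4 genes) it was 1.20 with NimC1 past it (adjusted p = 0.0242 in limma) and Hml at -0.31. NimC1 had signals of 2.05 and 2.48 in Canton S, both under the brightest control of their array, and of 29.0 to 32.7 in otd-uvi, so the size of its log2 difference depends on the pseudocount. The part of these cell types in the values of p, rb and cm was not tested.

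**Figure D4:**
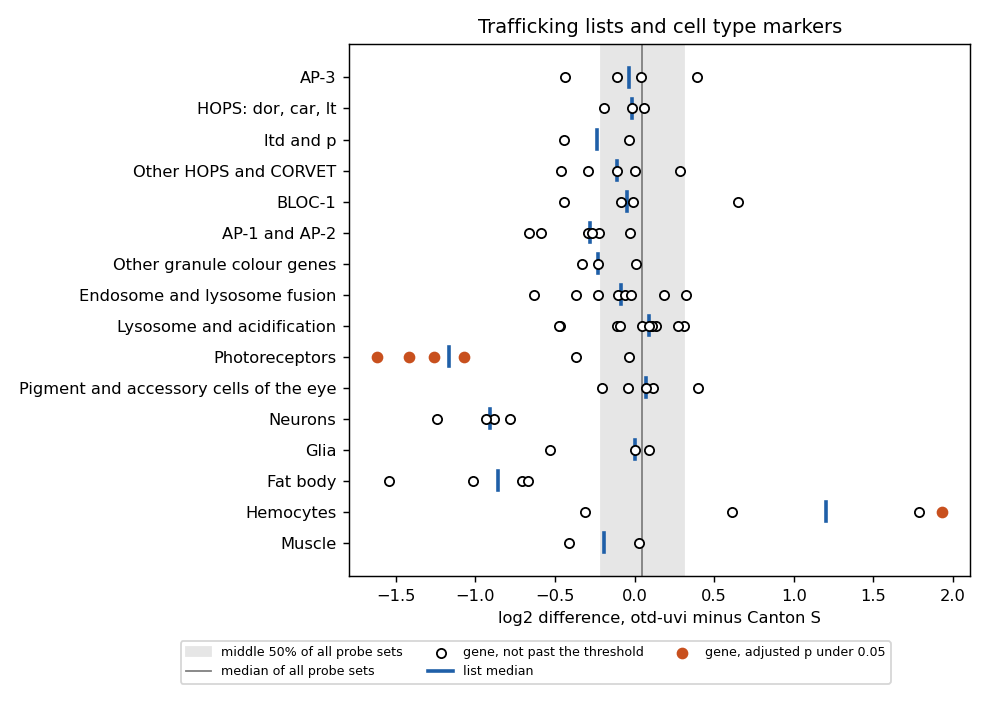
Log2 difference, otd-uvi minus Canton S, of each measured gene by its brightest probe set, for the members (top 3 rows), the other trafficking lists and the cell type markers. Blue ticks are list medians, the grey band and line are the middle 50% and the median of all probe sets, and filled points passed the test. Filled points appear among photoreceptor and hemocyte markers and in no trafficking list.

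Across 5 fits that each left out 1 array and 9 other settings, no member probe set passed the threshold. The signs of p, rb and cm were the same in all 14 of these fits. The difference of cm ranged from 0.29 to 0.50, that of p from -0.50 to -0.34, and that of rb from -0.57 to -0.18. For dor, lt, or, ltd, car and both probe sets of g the sign turned in at least 1 fit.

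**Figure D5:**
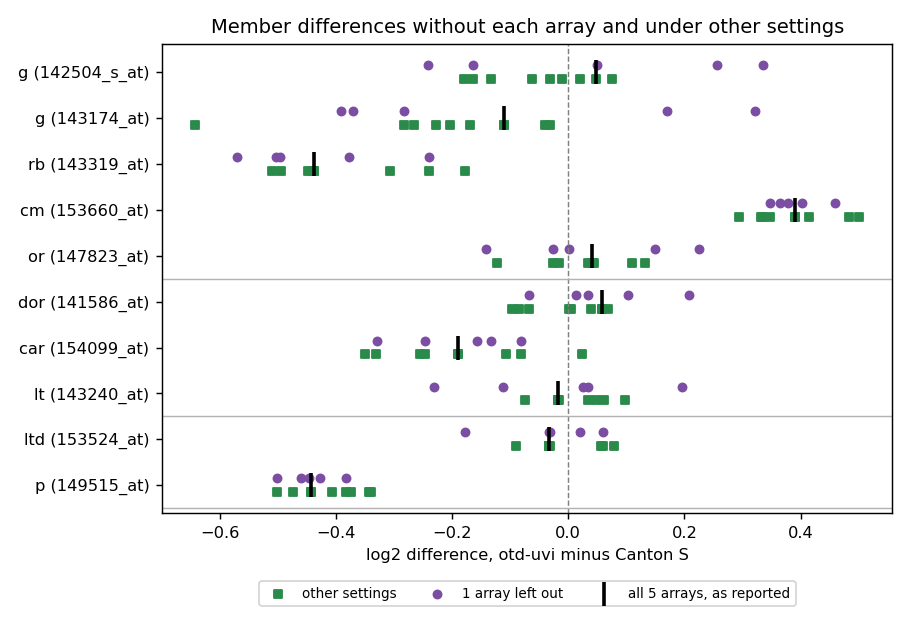
Log2 difference of each member probe set with all 5 arrays (black ticks), with 1 array left out (purple points) and under other settings (green squares). The points of cm stay above 0 and those of p and rb below 0, and those of the other 7 probe sets lie on both sides.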

How the data were processed

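Each array held biotin-labelled RNA of 1 sample. Its deposited signal intensities came from MAS5, per the submitters' processing notes. Version, scaling target and detection calls are not given in the sources used here. Array annotation from a reference table named the genes, and symbols were updated by gene identifier through RefSeq for 12394 probe sets; no genome build is named, so no positions are given. Sequences of promoters, probes and proteins were not used here, so the planned motif counts were not made.

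The 44 control probe sets were left out. A pseudocount of 8, near the 20th percentile of the signals, was added before taking log2. The model was fitted in R 4.3.3 by lmFit of limma 3.58.1, followed by eBayes using an intensity trend (strain as the only term, 3 residual degrees of freedom plus a prior of 4.16). P-values are two-sided and Benjamini-Hochberg adjusted over 13966 probe sets. Each extraction is a separate sample, and the number of arrays limits the precision. The fit was tested on simulated data, with changes planted only in the brighter probe sets and larger than the difference of any member. Where a gene had several probe sets, the one with the highest mean stood for it in lists.

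The members and lists were chosen with earlier results of these data known. Named genes are every member, oc, the 2 genes of each pathway list with the largest difference, and the 3 genes most like the member with the largest difference; genes marked in the text and the cell type markers come in addition. Alternatives were a pseudocount 4 times larger, a floor at the 1st percentile, quantile, cyclic loess and median scaling, leaving out the dimmest 40%, no trend, a replicate block, the 3-prime to 5-prime covariate, the mean over probe sets of a gene, and leaving out each array.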

Additional observations from a re-analysis of the deposited data

How the results depend on the processing

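The count of 0 called member probe sets and that of 0 called pathway genes were the same in all 14 refits. An unadjusted p under 0.05 in limma was reached by p as reported and in 6 of the 14 refits, by cm in 3 of 14, and by no member with the replicate block or the covariate. With quantile normalization and with cyclic loess, cm reached it in place of p. The count over all probe sets, 108 as reported, was 200 without the dimmest 40% (where fewer probe sets were tested), 8 with the 3-prime to 5-prime covariate, 1 with the replicate block, and 2 to 22 without 1 array; the cause was not tested. Equal replicate numbers are not said to share a batch, and deviations from the strain means correlated at -0.0045 for replicate 1 and 0.12 for replicate 2. The block therefore serves only as 1 of the 14 refits. Its member differences equal those of the fit without otd-uvi replicate 3, so these refits give the same estimates. The signs that turned belonged to differences of 0.19 or less in size as reported. Under quantile normalization they were g (142504_s_at) at -0.18, dor at -0.084, lt at 0.047 and ltd at 0.078. Under cyclic loess they were g (142504_s_at) at -0.13, dor at -0.096, lt at 0.061 and ltd at 0.057. Under median centring g (142504_s_at) was at -0.010 and or at -0.016. With the replicate block g (142504_s_at) was at -0.16, or at -0.027, dor at -0.067, lt at 0.034 and ltd at 0.059. With the covariate g (142504_s_at) was at -0.063, or at -0.12, car at 0.023 and lt at 0.098. The mean over its probe sets put g at -0.032. Without 1 array the ranges were -0.24 to 0.34 for g (142504_s_at), -0.39 to 0.32 for g (143174_at), -0.14 to 0.23 for or, -0.067 to 0.21 for dor, -0.23 to 0.20 for lt and -0.18 to 0.059 for ltd. Fits with a single Canton S array take its spread from the otd-uvi group. Depth on an array is signal over background: g was measured near it, and ltd far above it. The genes dor and car exceeded the brightest control on every array, but on otd-uvi replicate 1 only with 28.0 and 30.5 against 22.9.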
